A study of Mus musculus with 6 samples.

Results

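The genes described here are 8 costimulatory genes of PC B1a cells, *Cd80*, *Cd86*, *Icosl*, *Cd274*, *Pdcd1lg2*, *Cd40*, *Tnfsf4* and *Cd70*. They were chosen by name: every non-control probe that carries one of these names in the array files was read, which gave 10 of 55681 non-control probes and 8 of 36163 named genes. The data are 6 one-colour Agilent arrays of total RNA from peritoneal cavity (PC) B1a cells of 7-week-old female mice (C57Bl/6 in the labels, a C57BL/6J background in the methods), 3 arrays for *p40-/-IL-2Rα-/-* mice (p40-/- CD25-/- in the labels, called knockout here) and 3 for *p40-/-IL-2Rα+/-* mice (p40-/- CD25+/-, called control). All mice lacked p40 (*Il12b*) through a germline deletion, and the control mice kept 1 allele of *Il2ra*, which encodes CD25. The knockout mice are studied as a model of autoimmune cholangitis. The cells were sorted on surface markers, CD11b and CD5 among them, and each sample was a pool of at least 3 mice, so that p-values measure the spread between pools. Whether any mice are shared between pools is not stated, and if some are, that spread would be too small.

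B cells present antigen to T cells, and the outcome depends on a second signal from ligands on the B cell. CD80 and CD86 bind CD28, which activates the T cell, and CTLA-4, which restrains it. ICOS ligand sustains helper T cells through ICOS, PD-L1 (*Cd274*) and PD-L2 (*Pdcd1lg2*) restrain T cells through PD-1, and OX40 ligand (*Tnfsf4*) and CD70 act through OX40 and CD27. CD40 is not a ligand but the receptor through which T cells activate the B cell, and it is listed with the ligands because its engagement raises them.

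Each gene was read through 60-base probes, and what a value says about a gene depends on where its probe lies. Of every probe that was well above background on all 6 arrays, a stretch of 30 bases is shown 5′ to 3′, with the mm9 coordinates of the stretch and the strand as the array files give them. The capitals mark the 2 bases at which the probes of *Pdcd1lg2* differ, and the other probes have none.
*Cd80*, brighter probe, chr16:38486772-38486801, plus strand: aaaggagaggtgcctagtcttactgcaact
*Cd80*, dimmer probe, chr16:38479343-38479372, plus strand: ttcaatacgactcgcaaccacaccattaag
*Cd86*, chr16:36603991-36604020, minus strand: ctggccagttaccaacatgttctgtacaga
*Icosl*, chr10:77542211-77542240, plus strand: tagatggggcatagtgacttctagaaacct
*Cd274*, chr19:29462363-29462392, plus strand: ttgatgagtctcatgttaatgtcttgtttg
*Pdcd1lg2*, brighter probe, chr19:29545500-29545529, plus strand: tggaagcatttaagcaacacgtCaagtGcc
*Pdcd1lg2*, dimmer probe, chr19:29545500-29545529, plus strand: tggaagcatttaagcaacacgtTaagtAcc
*Cd40*, chr2:164897085-164897114, plus strand: gggtttctacctgtgtgttaccatttagtt

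The probes of *Cd80* start 7429 bases apart on chromosome 16, so they read different stretches of its locus. Those of *Pdcd1lg2* overlap over 57 bases and differ there by T50C and A55G, with positions counted from the 5′ end of the dimmer probe. The probes of *Tnfsf4* (chr1:163348095-163348153, plus strand) and *Cd70* (chr17:57285465-57285524, minus strand) were rarely above background. Which exon or UTR each probe lies in was not analysed here.

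Values below are log2 signals relative to the 75th percentile of the same array. The knockout arrays were dimmer before this scaling, with a 75th percentile of 131, 66.5 and 162 signal units for knockout 1, 2 and 3 against 264, 252 and 272 for control 1, 2 and 3, and a smaller share of their spots was well above background (39.7% to 45.9% against 47.2% to 50.6%). The 6 arrays shared 1 slide and 1 scan. The deleted gene, *Il2ra*, read 1.62, 1.13 and 1.35 on control arrays and -0.31, -0.59 and 0.86 on knockout arrays, a log2 difference of -1.38 (limma adjusted p = 0.119), and still stood well above background on every array. *Il12b* was -2.06 ± 0.17 (SD, n = 3) in control and -2.08 ± 0.39 (SD, n = 3) in knockout samples, so neither probe shows its deletion as a missing signal. The number of arrays limits the precision.

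Among the 8 genes, *Icosl* was higher on all 3 knockout arrays than on any control array, and *Cd40* and the brighter of the 2 probes of *Cd80* were lower. The dimmer probe of *Cd80* overlapped between genotypes and read slightly higher in knockout samples. The genotypes overlapped for *Cd86*, *Cd274* and *Pdcd1lg2*, and *Tnfsf4* and *Cd70* were too dim to be tested. At the thresholds of the study, at least 2-fold (its methods) and a p of at most 0.05 before adjustment (its volcano plot), 1 of the 8 tested probes passed, that of *Icosl*, where 3.64% of all 24757 tested probes did. No probe of the 8 genes had a limma adjusted p under 0.05, a call that 0.0808% of all tested probes reached, while 3 had an unadjusted p under 0.05, as did 24.6% of all tested probes. The genotypes did not overlap for 3 of the 6 tested genes by their brightest probe, against 36.3% of all 18256 tested genes. Under the alternatives tried, that count was 2 to 4, and the share of all tested genes was 30.4% to 56.3%. The median log2 difference of the 6 genes was -0.13, and that of all tested genes was -0.12. In bulk samples, fewer cells of a type and less RNA per cell cannot be told apart.

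**Figure D1:**
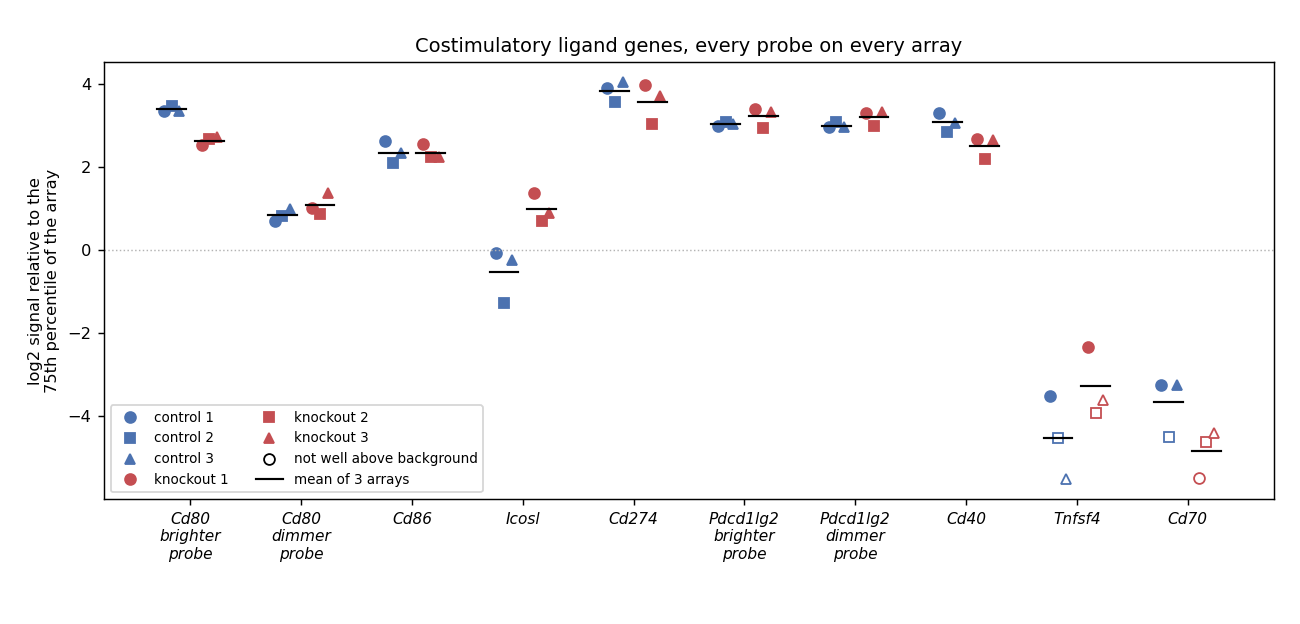
Log2 signal relative to the 75th percentile of the array (vertical axis) for the 10 probes of the 8 genes, with 1 marker per array (blue control, red knockout), open where the probe was not well above background, and a line at the mean of the 3 arrays. The 3 knockout arrays lie above the 3 control arrays for *Icosl* and below them for the brighter probe of *Cd80* and for *Cd40*.

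*Cd80*, which encodes the ligand B7-1, read 3.35, 3.46 and 3.34 on control 1, 2 and 3 and 2.51, 2.66 and 2.72 on knockout 1, 2 and 3 by its brighter probe. Every knockout array was lower than every control array, and the spread within a genotype was small, with an SD of 0.06 in control and 0.11 in knockout samples. The log2 difference was -0.75 (standard error 0.14, 95% interval -1.08 to -0.42), that is 1.69-fold lower in knockout samples. The unadjusted p was 0.000917 and the limma adjusted p was 0.0888, so that the decrease did not pass after adjustment over all probes.

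The dimmer probe of *Cd80* gave another picture. It read 0.71, 0.82 and 0.99 on control arrays and 1.02, 0.88 and 1.36 on knockout arrays, and the genotypes overlapped. Its log2 difference was 0.25 (standard error 0.18, 95% interval -0.17 to 0.67, limma adjusted p = 0.392). Within an array, where a factor common to all its probes cancels, the brighter probe exceeded the dimmer one by 2.65, 2.64 and 2.36 on control 1, 2 and 3 and by 1.49, 1.78 and 1.36 on knockout 1, 2 and 3. That gap was thus smaller on every knockout array, by 1.00 log2 unit on average (two-sided exact permutation test, p = 0.1, the smallest that 3 arrays against 3 allow). The lower level of *Cd80* rests on the probe at chr16:38486772-38486831 alone. Of 4544 genes with 2 or more tested probes, 35.3% had their brightest and dimmest probe moving in opposite directions, and 5.88% had them at least as far apart as *Cd80*.

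*Cd86*, which encodes B7-2 and shares both receptors with CD80, read 2.62, 2.09 and 2.33 on control arrays and 2.55, 2.24 and 2.23 on knockout arrays. The genotypes overlapped throughout and their means were alike. The log2 difference was -0.0012 (95% interval -0.44 to 0.44, standard error 0.19, limma adjusted p = 0.997), and that interval holds changes of up to 1.36-fold in either direction.

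*Icosl*, the gene of ICOS ligand, read -0.07, -1.27 and -0.25 on control 1, 2 and 3 and 1.36, 0.69 and 0.90 on knockout 1, 2 and 3. All knockout arrays were higher than all control arrays, and control 2 lay farthest from the others of its genotype. The log2 difference was 1.51 (standard error 0.34, 95% interval 0.72 to 2.31), a level 2.86-fold higher in knockout samples. It had an unadjusted p of 0.00257 and a limma adjusted p of 0.101, and so passed the 2-fold thresholds but not the adjusted one. Before scaling, the signals of the probe overlapped, at 250, 105 and 229 on control arrays and 337, 108 and 301 on knockout arrays, so that the size of the difference depends on setting each array against its own brightness. A further probe at the *Icosl* locus, named in the files by a transcript and not by the gene, was well above background on no array and gave no second reading.

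*Cd274*, the gene of PD-L1, read 3.89, 3.55 and 4.03 on control arrays and 3.96, 3.04 and 3.71 on knockout arrays. Knockout 2 was the lowest of the 6 arrays and knockout 1 the second highest, so that the knockout arrays spread more widely than the control arrays (SD 0.48 against 0.25). The log2 difference was -0.26 (standard error 0.26, 95% interval -0.87 to 0.36, limma adjusted p = 0.537). Without knockout 2 it was 0.0097.

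*Pdcd1lg2*, the gene of PD-L2, was read by probes that differ at 2 bases of their shared stretch. The brighter one read 2.99, 3.08 and 3.04 on control arrays and 3.39, 2.94 and 3.31 on knockout arrays. The dimmer one read 2.95, 3.07 and 2.96 on control arrays and 3.30, 2.97 and 3.33 on knockout arrays. By both probes knockout 1 and 3 were the highest of the 6 arrays and knockout 2 lay among or near the control arrays. The log2 differences were 0.18 (95% interval -0.21 to 0.57, limma adjusted p = 0.500) and 0.21 (95% interval -0.16 to 0.58, limma adjusted p = 0.412). The gap between the probes on an array changed by -0.03 between genotypes (two-sided exact permutation test, p = 0.6). As the probes overlap over most of their length, they are not independent readings of the gene.

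**Figure D2:**
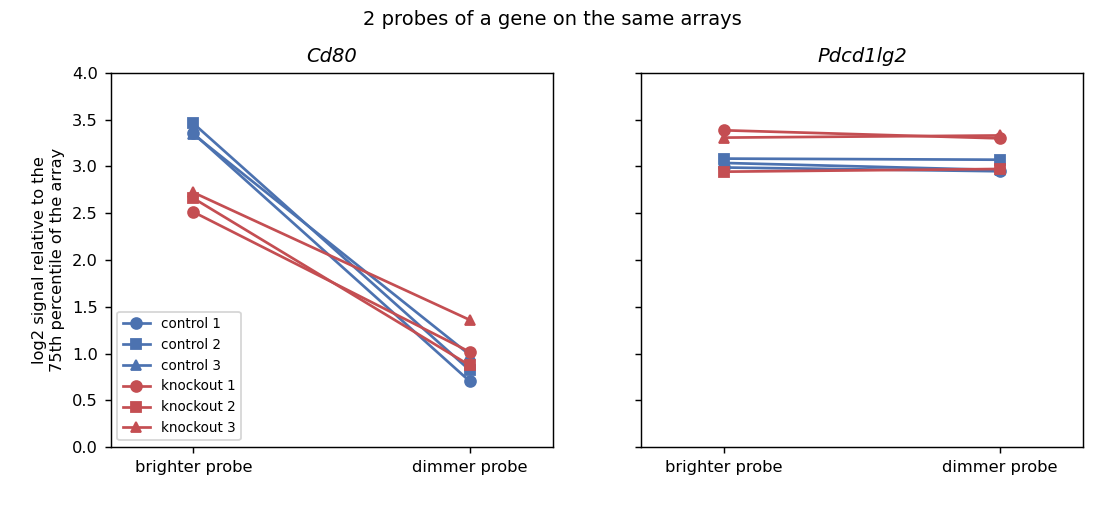
Log2 signal relative to the 75th percentile of the array (vertical axis) for the brighter and the dimmer probe of *Cd80* (left) and *Pdcd1lg2* (right), with 1 line per array (blue control, red knockout). For *Cd80* the knockout lines start below the control lines and end among or above them, so that the gap between the probes was 1.36 to 1.78 on knockout and 2.36 to 2.65 on control arrays, while the lines of *Pdcd1lg2* are nearly flat in both genotypes.

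*Cd40* read 3.30, 2.84 and 3.06 on control arrays and 2.66, 2.18 and 2.64 on knockout arrays. The groups did not overlap, although the lowest control array and the highest knockout array lay close together. The log2 difference was -0.57 (standard error 0.20, 95% interval -1.04 to -0.10), that is 1.49-fold lower in knockout samples, with an unadjusted p of 0.0231 and a limma adjusted p of 0.156. *Tnfsf4* read -3.52, -4.52 and -5.52 on control arrays and -2.33, -3.92 and -3.61 on knockout arrays, and was well above background on control 1 and knockout 1 alone. *Cd70* read -3.24, -4.51 and -3.25 on control arrays and -5.48, -4.61 and -4.39 on knockout arrays, and was well above background on control 1 and 3 and on no knockout array. Neither gene was tested and no fold is given for them, because most of their values lay at the background of the array.

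Bright probes as a whole read lower on the knockout arrays after scaling. Among probes within 0.5 log2 units of the mean level of a member, the median log2 difference was -0.24 for the brighter probe of *Cd80*, -0.23 for *Cd40* and *Cd86*, -0.25 for *Cd274* and for both probes of *Pdcd1lg2*, -0.14 for the dimmer probe of *Cd80* and -0.08 for *Icosl*. *Cd40* and the brighter probe of *Cd80* thus lay below probes of like brightness by less than their full difference, *Icosl* lay above them by more, and the dimmer probe of *Cd80*, *Cd86* and both probes of *Pdcd1lg2* lay above them as well. The part of brightness in the differences was not tested.

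**Figure D3:**
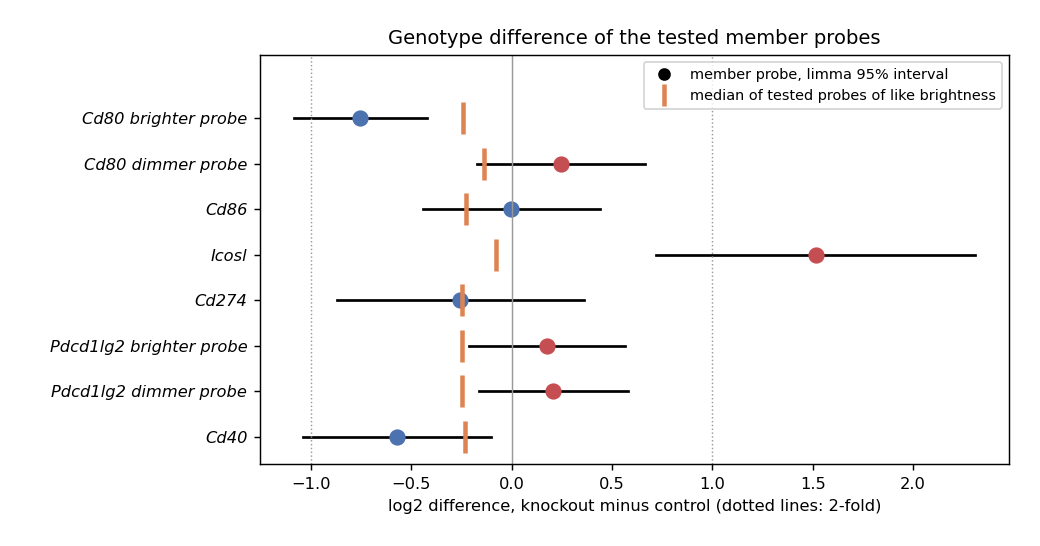
Log2 difference, knockout minus control (horizontal axis), of the 8 tested probes, with the 95% interval of limma, and an orange bar at the median of all tested probes of like brightness. The intervals of *Icosl*, *Cd40* and the brighter probe of *Cd80* leave out 0, and the orange bars lie between -0.25 and -0.08.

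A factor that scales a whole array cancels in differences within that array, though quantile normalization or another background correction would still change them. Each of the other tested genes was therefore set against *Cd86* on the same array. *Icosl* minus *Cd86* was -2.69, -3.36 and -2.57 on control arrays and -1.18, -1.55 and -1.34 on knockout arrays, a change of 1.52. *Cd80* minus *Cd86*, by the brighter probe, was 0.74, 1.37 and 1.02 on control arrays and -0.03, 0.42 and 0.49 on knockout arrays, a change of -0.75. *Cd40* minus *Cd86* was 0.68, 0.75 and 0.74 on control arrays and 0.12, -0.06 and 0.41 on knockout arrays, a change of -0.57. For these 3 genes the genotypes did not overlap (two-sided exact permutation test, p = 0.1 each, 0.167 after adjustment over the 5 contrasts), which compares their change with that of *Cd86* and does not show that *Cd86* stayed the same. For *Cd274* and *Pdcd1lg2* the genotypes overlapped, with changes of -0.25 and 0.18 (exact permutation test, p = 0.5 each). The 5 contrasts share the values of *Cd86*. As the log2 difference of *Cd86* was -0.0012, the mean changes restate the differences given above and are no separate support for them.

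The directions of *Icosl*, *Cd40* and the brighter probe of *Cd80* were the same under all 20 alternatives of processing, test or samples. Over these, the log2 difference of *Icosl* lay between 1.11 and 1.74, that of the brighter probe of *Cd80* between -0.99 and -0.25, the latter for the mean of both its probes, and that of *Cd40* between -0.80 and -0.36. Their adjusted p-values ranged from 0.00378 to 0.300 for *Icosl*, from 0.00343 to 0.306 for the brighter probe of *Cd80* and from 0.0134 to 0.384 for *Cd40*. The dimmer probe of *Cd80* stayed between 0.11 and 0.35 over its 18 alternatives, the opposite direction. *Cd86* ran from -0.24 to 0.17, *Cd274* from -0.54 to 0.0097 and *Pdcd1lg2* from -0.13 to 0.39 by its brighter and from -0.083 to 0.42 by its dimmer probe, so that each changed sign under at least 1 alternative and some of these values were as large as the smallest of *Cd40*.

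**Figure D4:**
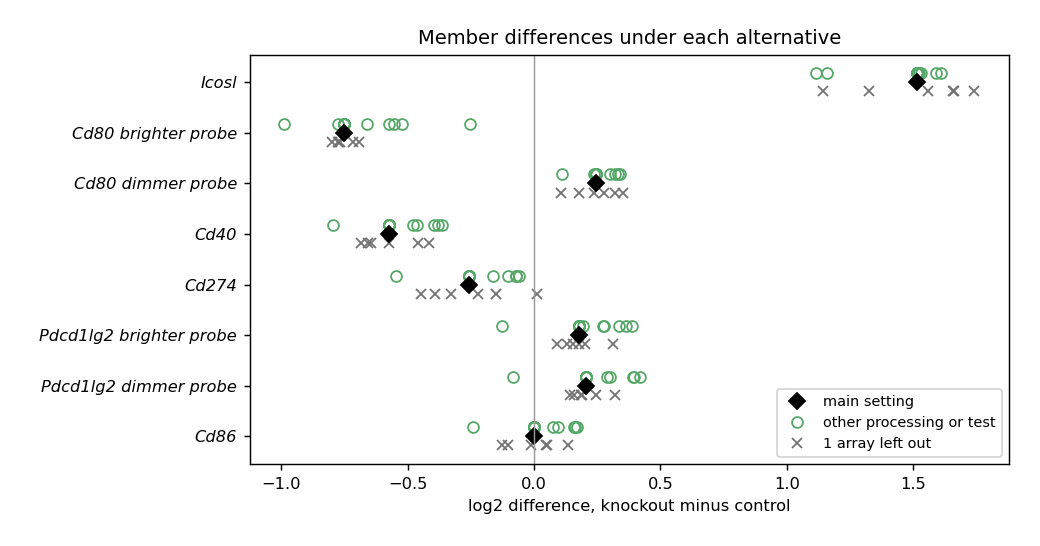
Log2 difference, knockout minus control (horizontal axis), of each tested probe in the main setting (black), under other processing or tests (green circles) and with 1 array left out (grey crosses). *Icosl* stays between 1.11 and 1.74, *Cd40* and the brighter probe of *Cd80* stay below 0, and *Cd86*, *Cd274* and *Pdcd1lg2* have points on both sides of 0.

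The partners of these molecules were read on the same arrays. Of 8 partner receptors and ligands, 5 were tested, none passed the 2-fold thresholds or the adjusted p, and 2 had an unadjusted p under 0.05. Their median log2 difference was 0.17, and it was 0.055 without control 2, 0.084 without knockout 3, -0.0018 after normexp correction scaled to the 75th percentile, 0.30 with quantile normalization and 0.44 without a filter on dim probes. The smallest unadjusted p was that of *Pdcd1*, the gene of PD-1, which read -3.06, -3.33 and -3.47 on control arrays and -2.55, -2.55 and -2.39 on knockout arrays, a log2 difference of 0.79 (limma adjusted p = 0.0933). It was dim, and well above background on 2 of the 3 knockout arrays. The other was *Ctla4*, the inhibitory receptor of CD80 and CD86, which was well above background on each array and read 0.75, 0.53 and 0.86 on control arrays and 0.53, 0.03 and 0.28 on knockout arrays. Its log2 difference ran the other way, at -0.44 (unadjusted p = 0.0475, limma adjusted p = 0.201). No probe of *Cd27* or *Cd40lg*, the partners of CD70 and CD40, was well above background on any array, and those of *Icos* were on 1 control array each.

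A further list held 9 genes, 8 of the B7 and butyrophilin families and *Tnfrsf14*, a TNF receptor superfamily gene whose product binds BTLA. Of the 9, 5 were tested, *Tnfrsf14* (log2 difference 0.15) among them, and none passed either threshold, with a median log2 difference of 0.23 that was 0.44 without knockout 3, 0.11 with normexp and quantile normalization and 0.52 without a filter on dim probes. *Btnl2*, a butyrophilin-like gene that restrains T cells, had the smallest p among them, with a log2 difference of 0.52 (limma adjusted p = 0.194). Of 14 other ligands of the TNF superfamily, 9 were tested, and 6 of them read higher and 3 lower on knockout arrays, where 7266 of all 18256 tested genes read higher. Of the 6, *Tnfsf15* was well above background on no knockout array, so that its direction is not measured. The median log2 difference of the 9 was 0.38, and it was 0.099 without control 2 and 0.17 without knockout 1. *Lta*, which encodes lymphotoxin alpha, passed the 2-fold thresholds. It read -0.39, -1.55 and -0.78 on control arrays and 0.49, 0.02 and -0.16 on knockout arrays, which did not overlap, a log2 difference of 1.02 (limma adjusted p = 0.135). None of the 9 passed the adjusted p, and 3 had an unadjusted p under 0.05.

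Genes that act below CD40 were read next. Of 15 genes of CD40 and NF-kB signalling, 14 were tested and none passed either threshold, with a median log2 difference of -0.07. *Traf3*, an adaptor that CD40 recruits and a brake on the noncanonical pathway, had the smallest p, with a log2 difference of -0.49 (limma adjusted p = 0.157). The probes of *Nfkb1* moved apart, by 0.42 for the brighter (limma adjusted p = 0.158) and -0.52 for the dimmer (limma adjusted p = 0.179). The median of the list ran from -0.33, after normexp correction scaled to the 75th percentile, to 0.037, without knockout 2, and changed sign under 5 of the 20 alternatives.

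The surface level of B7 proteins is also set by turnover, in which MARCH1 and MARCH8 mark CD86 for degradation, CD83 opposes them and CMTM6 and CMTM4 protect PD-L1. All 5 genes were tested and none passed either threshold, with a median log2 difference of -0.21 that was -0.76 without knockout 3 and -0.018 after averaging each gene over its probes. *Cmtm6* had the smallest p and read 5.62, 5.31 and 5.47 on control arrays and 5.04, 4.38 and 5.03 on knockout arrays, which did not overlap, a log2 difference of -0.65 (limma adjusted p = 0.146). Protein levels were not analysed here.

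**Figure D5:**
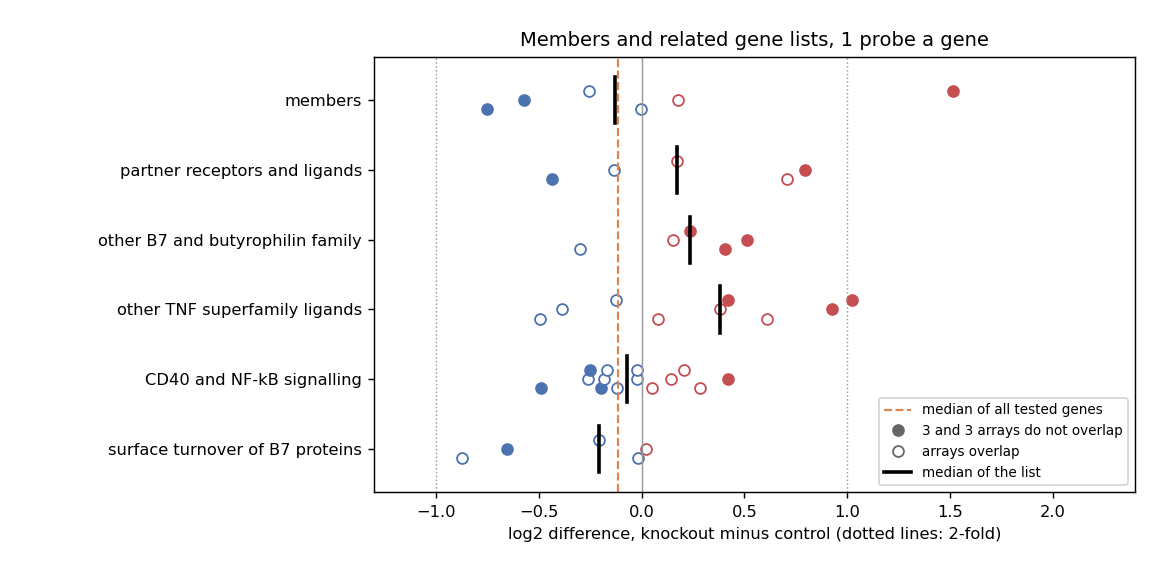
Log2 difference, knockout minus control (horizontal axis), of the tested genes of each list, 1 probe a gene, filled where the 3 knockout and 3 control arrays do not overlap, with a black bar at the median of the list and a dashed line at the median of all tested genes, -0.12. *Icosl* at 1.51 and *Lta* at 1.02 are the 2 points beyond the upper 2-fold line.

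Other cells of the peritoneal cavity also use these ligands, so markers were read beside them. All 6 B cell and all 6 B1a cell markers read here were well above background on all 6 arrays, *Cd5* and *Itgam* (CD11b) among them, on whose proteins the cells were sorted. None passed either threshold, and the summed levels overlapped. By brightest probe, 2 B cell markers read higher and 4 lower, with the smallest p for *Pax5* (log2 difference 0.57, limma adjusted p = 0.121). Of the B1a cell markers 3 read higher and 3 lower, with the smallest p for *Cd9* (-0.48, limma adjusted p = 0.155). Of 9 T cell markers, 5 were well above background on all 6 arrays and *Bcl11b* on none. Their summed level, the log2 of the sum of relative signals, was 2.30 to 2.52 on control arrays and 2.56 to 3.08 on knockout arrays, and *Thy1* (log2 difference 2.13, limma adjusted p = 0.133) and *Cd3d* (1.41, limma adjusted p = 0.189) passed the 2-fold thresholds. *Cd3d* overlapped between genotypes, and *Thy1* was highest on knockout 3, at 0.51. Of the 6 tested T cell markers, 5 read higher and *Cd3g* read lower (-0.28, limma adjusted p = 0.414). Of 10 macrophage markers, 7 were well above background on all 6 arrays, with overlapping summed levels of 4.03 to 5.03 and 3.92 to 5.43, and *Lyz2* was lower (-1.08, limma adjusted p = 0.164) at the 2-fold thresholds. The genotypes overlapped for *Lyz2*. Of the 7 tested macrophage markers, 6 read lower and *Marco* read higher (0.92, limma adjusted p = 0.449). Of 7 dendritic cell markers, *Siglech* alone (1 of 7) exceeded background on every array, and by 1 of its 3 probes, the other 2 being well above background on none. The summed level of the list, 5.94 to 6.06 on control and 6.17 to 6.99 on knockout arrays, is nearly that of this probe alone. The summed level of 4 plasma cell markers was 5.47 to 5.75 on control and 4.72 to 5.22 on knockout arrays, with *Jchain* lower (-1.92, limma adjusted p = 0.133) at the 2-fold thresholds. Most of that sum is the signal of *Xbp1*, at 5.15, 5.32 and 5.54 on control arrays and 4.55, 4.90 and 4.99 on knockout arrays. *Prdm1* and *Sdc1* overlapped between genotypes. The 2 B2 cell markers read, *Fcer2a* (log2 difference 0.61, limma adjusted p = 0.182) and *Cr2* (0.24, limma adjusted p = 0.621), passed neither threshold, with overlapping summed levels of 0.67 to 1.61 and 1.00 to 1.81. The summed level of 5 granulocyte and mast cell markers was -1.76 to 1.80 and -1.52 to -0.65, and the ranges overlap. *Mcpt4*, the one gene of this list past the 2-fold thresholds, was well above background on all 3 control arrays but 1 of 3 knockout arrays, and no fold is given for it. Of 4 NK cell markers, 3 were well above background on no array, and *Gzma* was on 2 control and 3 knockout arrays (log2 difference 1.44, limma adjusted p = 0.236), with overlapping summed levels of -3.83 to -1.77 and -2.03 to -1.47. On control arrays *Gzma* read -2.13, -3.72 and -5.27, so that its difference rests in part on a value near background. The summed levels of the T cell, dendritic cell and plasma cell lists thus did not overlap between genotypes, as the levels of *Icosl*, *Cd40* and the brighter probe of *Cd80* did not, and their part in those differences was not tested.

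For the 3 genes whose genotypes did not overlap, the genes with the most similar pattern over the 6 arrays were named by Pearson's r among 15671 genes well above background on all of them. For *Cd80* these were *Cstf1* (r = 0.994), *Ankrd54* (r = 0.994) and *6720456H20Rik* (r = 0.992). For *Icosl* they were an unnamed transcribed region of chromosome 10 (r = 0.999), *Ptch1* (r = 0.998) and *A530054K11Rik* (r = 0.998), and for *Cd40* they were *Dnmt3a* (r = 0.997), *Dnajc19* (r = 0.997) and *Rnf103* (r = 0.996). With only 6 arrays such values are common, since r was over 0.9 with *Cd80* for 668 genes, with *Icosl* for 346 and with *Cd40* for 1834. The points share the brightness of their array.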

How the data were processed

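PC B1a cells were sorted by flow cytometry and their total RNA was hybridized with a single dye (Cy3), 1 sample per Agilent mouse array. The authors deposited the intensity of each spot as Agilent Feature Extraction 10.7.1.1 gave it, corrected for background but left unscaled between arrays. A deposited table of log2 values, quantile normalized as its equal sorted columns show, served as an alternative. Here the 75th percentile of each array was subtracted from the log2 processed signal and outlier spots were left out. Probes entered the test if every array of either genotype (3 of 3) was well above background and at least 2 arrays of each gave a value. Genotypes were compared by probe with lmFit and eBayes of limma 3.58.1 (R 4.3.3). No covariate was used, and Benjamini-Hochberg adjustment ran over all 24757 tested probes, with a threshold of 0.05. The brightest tested probe on average stood for its gene. The steps were tested on simulated data. The members, lists and alternatives were chosen with earlier results of these data known. Genes named from a list are those past the 2-fold thresholds or, without any, the one with the smallest unadjusted p. The probes of *Nfkb1*, the partners *Cd27*, *Cd40lg*, *Icos* and *Ctla4*, *Tnfsf15*, *Tnfrsf14*, and the markers *Bcl11b*, *Cd3g*, *Marco*, *Xbp1*, *Prdm1*, *Sdc1*, *Siglech*, *Cr2* and *Gzma*, were named after their values were seen. Gene names and mm9 coordinates are those of the array files. Flow cytometry and PCR were not analysed here. Some genes and a list that were planned are not reported here.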

Additional observations from a re-analysis of the deposited data

How the results depend on the processing

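*Icosl* passed the 2-fold thresholds under all 20 alternatives, and *Cd70* passed with it, for a count of 2 instead of 1, without a filter on dim probes and without control 2, so that leaving out single arrays gave 1 to 2. Of all probes, 34.1% passed without the filter and 3.59% without control 2, against 3.64%. *Cd70* was well above background on no knockout array. Without control 2 it entered the test through the control arrays alone, and its difference there is against background. No filter also shifted the median of all probes to 0.55. The count of probes of these genes with an adjusted p under 0.05 was 3 after normexp correction of the background with scaling to the 75th percentile (*Icosl*, *Cd40* and the brighter probe of *Cd80*), where 37.7% of all probes passed, 2 with a trend and robust estimation (*Icosl*, *Cd80*), where 3.96% passed, and 1 with array weights (*Cd80*), where 2.78% passed. Under the other alternatives it was 0. Over all alternatives the number of all tested probes past the adjusted p ran from 1 to 9334, against 20, and past the 2-fold thresholds from 192 to 18975, against 900; of the latter, 43.2% (deposited log2 values) to 98.2% (no filter) were higher in knockout samples, against 65.4%. The log2 difference of *Cd86* turned to 0.17 with quantile normalization, 0.16 with normexp and quantile normalization, 0.093 with the median of detected probes, 0.16 with the deposited values and 0.074 with array weights, was -0.24 after normexp with scaling to the 75th percentile, and ran from -0.13 to 0.14 with single arrays left out. Those of the brighter and dimmer probe of *Pdcd1lg2* turned to -0.13 and -0.083 in that same normexp setting with the 75th percentile, and were 0.39 and 0.42 with quantile normalization, 0.34 and 0.39 with normexp and quantile normalization and 0.36 and 0.40 with the deposited values (lowest limma adjusted p over all alternatives 0.172 and 0.105). That of *Cd274* was -0.54 after normexp with scaling to the 75th percentile (limma adjusted p = 0.0708) and ran from -0.45 to 0.0097 with single arrays left out. The count of genes without overlap was 4 with quantile normalization, with normexp and quantile normalization, with the deposited values and without knockout 2, each time with *Pdcd1lg2*, 4 without control 2, with *Cd70*, and 2 after averaging each gene over its probes, without *Cd80*. In these settings, in that order, 30.4%, 30.4%, 30.7%, 43.4%, 47.3% and 34.6% of all tested genes did not overlap. The causes were not tested. With the replicate number as a block the counts stayed at 1 probe past 2-fold, 0 adjusted and 3 genes without overlap; deviations of same-numbered arrays correlated at 0.175, 0.0573 and 0.12, so the numbers were not taken to pair the samples. The methods' t-test gave 1 probe at 2-fold and 0 after adjustment. Probes near background, such as those of *Tnfsf4* and *Cd70*, are limited by their signal.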
